A study of Homo sapiens with 4 samples.

Results

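The 45 genes described here encode the proteins that license replication origins and build and run the replication fork, together with the transcription factor E2F1. They were chosen by name, with earlier results of these data known. All 45 were found among the 15357 genes of the deposited tables and passed the filter on low counts. The samples were RKO cells, a human colorectal cancer cell line, that had been infected with lentivirus and stably expressed a short hairpin RNA. In the vector group (n = 2) the hairpin was a control, and in the shCHD7_2 group (n = 2) it targeted the mRNA of CHD7, a chromatin remodeller. Both groups carried a lentiviral insertion and had the same medium, and the labels state no other treatment. Oligo-dT capture restricted the measurement to polyadenylated transcripts. A single CHD7 hairpin was sequenced, so loss of CHD7 and any other action of that hairpin cannot be told apart, and nothing states that the samples of a group came from separate cultures, so p-values measure the spread between these samples only.

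Before S phase, the origin recognition complex with CDC6 and CDT1 places the ring-shaped MCM2-7 helicase on DNA, a step called licensing that geminin (GMNN) blocks once replication has begun. The kinase CDC7 with its activator DBF4 then allows CDC45 and the GINS complex to join MCM2-7 and start the helicase, after which the polymerases, the PCNA clamp and its loader RFC, RPA, FEN1 and LIG1 copy and join the strands. E2F factors activate many of these genes when cells leave G1, and CDKN1A (p21), an inhibitor of cyclin-dependent kinases, restrains that step. The comparison therefore asks whether the transcripts of licensing and fork genes were lower in the cells in which CDKN1A was higher.

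Promoters were taken from RefSeq (GRCh38.p14) as the 250 bases before to the 50 bases after each gene's start, and 39 of the 45 genes had one. They were searched on both strands for the E2F words TTTCCCGC, TTTCGCGC, TTTGCCGC and TTTGGCGC, each of which can overlap its own reverse complement. At least 1 word was present in 19 of the 39 promoters (48.7%), against 535 of the 9457 promoters of genes tested (5.66%) and 908 of all 27305 promoters (3.33%). A match describes the letters only and does not show that a factor binds. The windows below are given for genes on which the comparison turns and for 3 well-known members of the pathway, 5′ to 3′ on the gene's own strand, with the E2F words in capitals. The window of GINS1 is chr20:25407654-25407709 (+), that of PCNA chr20:5126650-5126705 (-), that of E2F1 chr20:33686387-33686442 (-), that of MCM2 chr3:127598389-127598444 (+), that of CDC6 chr17:40287862-40287917 (+) and that of POLA1 chrX:24693757-24693812 (+).
GINS1: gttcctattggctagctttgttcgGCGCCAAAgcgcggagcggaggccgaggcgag
PCNA: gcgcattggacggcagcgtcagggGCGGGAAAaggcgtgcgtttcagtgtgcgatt
E2F1: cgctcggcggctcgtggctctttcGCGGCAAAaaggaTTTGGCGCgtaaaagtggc
MCM2: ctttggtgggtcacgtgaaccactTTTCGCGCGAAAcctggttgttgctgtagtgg
CDC6: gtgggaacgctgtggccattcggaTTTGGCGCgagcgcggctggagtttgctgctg
POLA1: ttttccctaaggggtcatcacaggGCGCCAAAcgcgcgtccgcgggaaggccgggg
The E2F word begins 5 bases after the RefSeq start in GINS1 and 59 bases before it in PCNA. The E2F1 promoter holds 2 words, and in MCM2 the word overlaps its reverse complement.

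After CHD7 knockdown, GINS1, a subunit of the GINS complex, was the single licensing or fork gene to pass the test, and the other 44 were not called. The test was edgeR's quasi-likelihood test, adjusted over 11955 genes by the Benjamini-Hochberg method, and called here means an adjusted p below 0.05. Unless another setting is named, called refers to this main fit. Of the 45 genes, 1 was called lower and 0 were called higher, whereas 6.54% of all genes tested were called lower, 4.94% higher and 11.5% in either direction. With the further demand of a 1.5-fold change, 1 of the 45 was called, against 2.88% of all genes. At an unadjusted p under 0.05, 2 of the 45 were lower and 8 higher, against 13.3% and 12.1% of all genes. DESeq2 also called GINS1 alone, while limma on log2(FPKM + 1) called 2 genes higher, PCNA and PRIM1, besides GINS1 lower.

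The median log2 fold change of the 45 genes was 0.0081, beside 0.0006 for all genes tested, with 21 of the 45 below zero and 24 above. Apart from GINS1 the values ran from -0.21 (POLA1) to 0.26 (E2F1). The 95% interval of the difference lay within 1.5-fold in both directions for 44 of the 45 genes, against 80.5% of all genes tested. Among these 44 genes the interval that reached lowest was that of POLA1, which allows a transcript up to 23.8% lower, and the interval that reached highest was that of E2F1, which allows 38.2% higher. The intervals are for each gene on its own and were not widened for the number of genes. Both knockdown samples lay below both vector samples in 9 of the 45 genes and above them in 16, and the corresponding shares of all genes were 27.3% and 26.4%. Summed over the 45 genes, the counts per 1e6 reads (CPM, on TMM-scaled library sizes) were 3574.5 and 3556.2 in the vector samples and 3615.1 and 3675.4 in the shCHD7_2 samples.

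**Figure D1:**
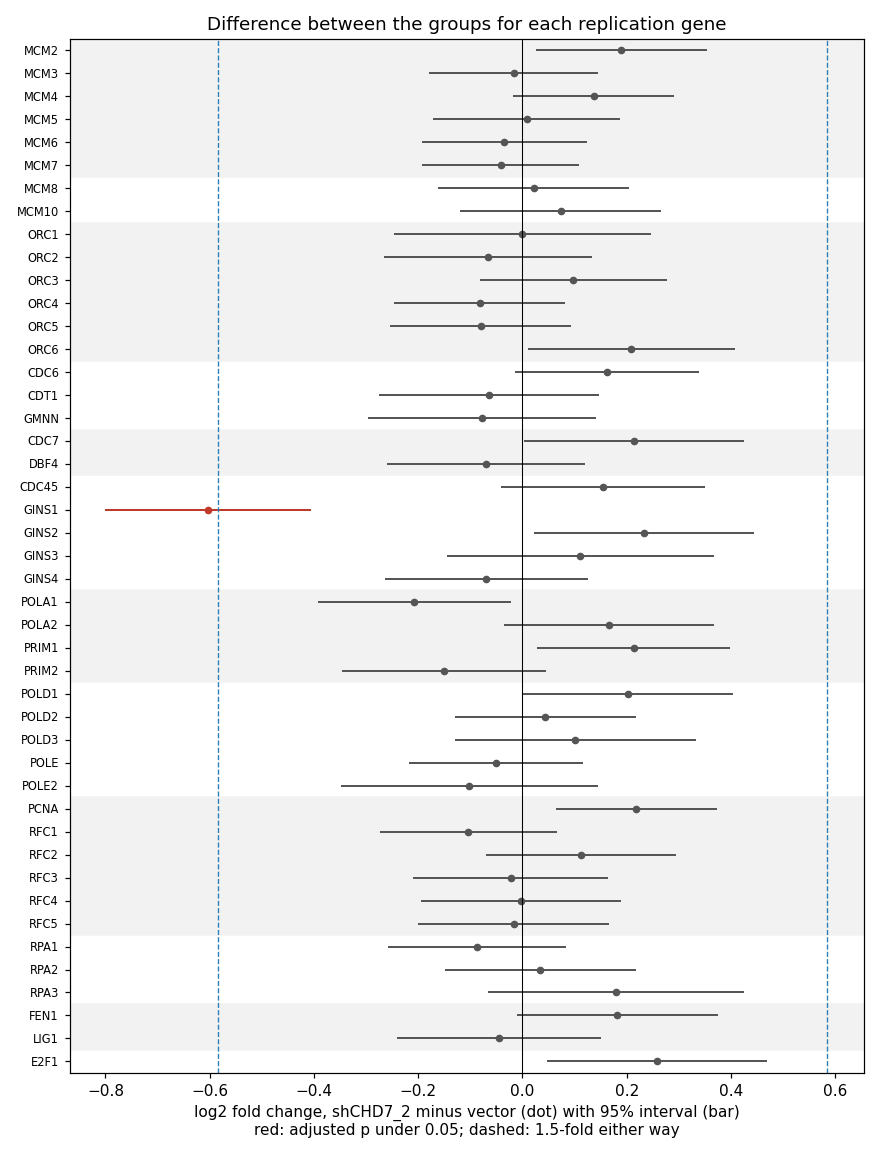
Log2 fold change between the groups (shCHD7_2 minus vector, dots) with its 95% interval (bars) for each of the 45 genes, in the order of their complexes, shown as grey and white bands. GINS1, in red, is the gene called at an adjusted p under 0.05, and the dashed lines mark a 1.5-fold difference. The other 44 intervals lie between the dashed lines.

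The knockdown itself and the rise of CDKN1A were present in the same samples. CHD7 was at 85.4 and 91.0 CPM in the vector samples and at 55.5 and 50.1 in the shCHD7_2 samples. CDKN1A was at 128 and 112 CPM in the vector samples and at 244 and 252 CPM in the shCHD7_2 samples, a log2 fold change of 1.04 (edgeR, adjusted p = 4.66e-09). Neither gene's groups overlapped. Of colon epithelial markers, EPCAM, CDX2, KRT8 and KRT18 reached 1 FPKM in every sample, while CDH1 and KRT20 were at most 0.04 FPKM. The 3 fibroblast markers listed summed to at most 0.13 FPKM and the 2 endothelial ones to at most 0.03. Of the 2 leukocyte markers listed, CD14 was at most 0.05 FPKM, whereas CD68, also a lysosomal protein of many cells, was at 495 to 611 FPKM. Estimated counts summed to between 15734679 and 16068650 per sample. In bulk RNA, fewer cells in S phase and less transcript per cell cannot be told apart.

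GINS1 encodes a subunit of GINS, the complex of GINS1 to GINS4 that binds MCM2-7 together with CDC45 in the active helicase. The gene lies on chromosome 20 of GRCh38 from 25407727 to 25452628 (GENCODE 29). GINS1 was at 55.0 and 50.7 CPM in the vector samples and at 32.8 and 36.7 CPM in the shCHD7_2 samples. Both knockdown samples were thus below both vector samples, by more than the samples of either group differed from each other. GINS1 fell by 34.2%, a log2 fold change of -0.60 (standard error 0.0944, 95% interval -0.80 to -0.41, edgeR adjusted p = 0.000131). It ranked 163 of the 11955 genes by p. It was called under 12 of the 14 alternatives, and was not called without a filter on low counts (edgeR adjusted p = 0.0517) or on FPKM without a filter (limma adjusted p = 0.107). The alternatives that called it include a crossed block of the replicates, chosen after seeing the data. The change of GINS1 was close to 1.5-fold, so the demand for that fold was missed under other settings given below.

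In the main fit none of the partners of GINS1 was called. GINS2 was at 30.3 and 36.6 CPM in the vector samples and at 38.8 and 39.9 CPM in the shCHD7_2 samples, with a log2 fold change of 0.23 (edgeR adjusted p = 0.147). GINS3 was at 16.9 and 15.9 CPM against 18.9 and 16.5, with overlapping groups. GINS4 was at 36.9 and 36.4 CPM against 35.0 and 34.9, and its 95% interval was -0.26 to 0.12. CDC45, which completes the helicase, was at 41.4 and 38.8 CPM against 42.2 and 47.1 (edgeR adjusted p = 0.315). In FPKM, a unit scaled to gene length, GINS1 stood at 1.1 and 0.91 times the mean of GINS2, GINS3 and GINS4 in the vector samples and at 0.558 and 0.631 times that mean in the shCHD7_2 samples. These ratios of levels are a description, since no test of GINS1 against its partners was made and a permutation of 2 samples against 2 cannot give a two-sided p below 0.333.

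**Figure D2:**
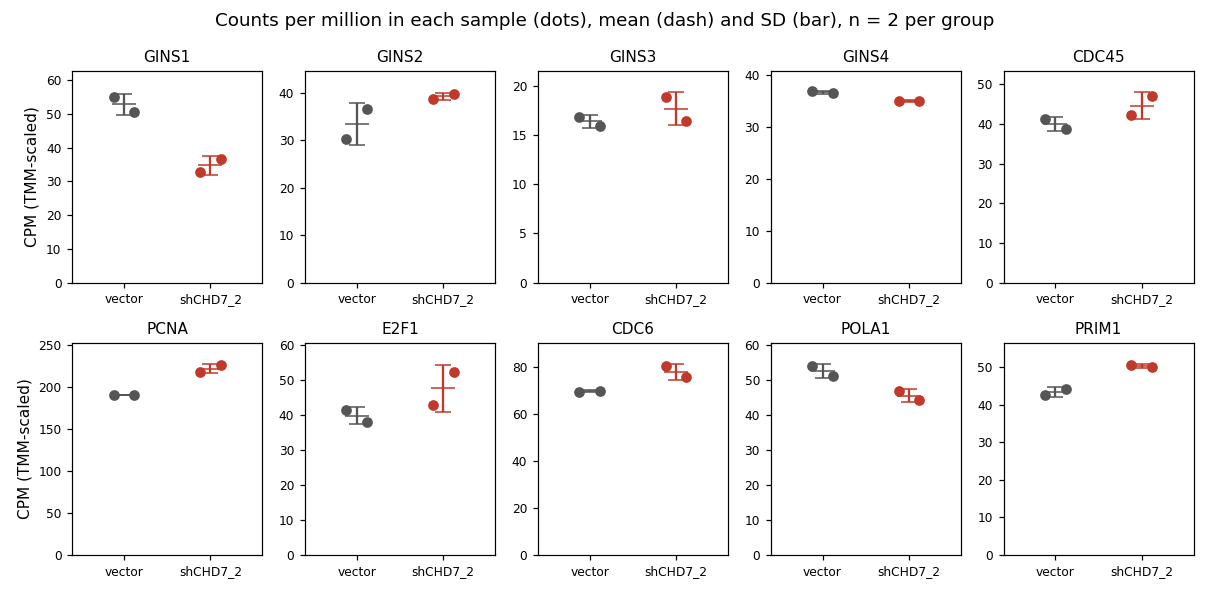
CPM (TMM-scaled, axes from 0) of 10 genes in each sample, with the mean (dash) and SD (bar) of the 2 samples per group. GINS1 is at 55.0 and 50.7 in the vector samples and 32.8 and 36.7 in the shCHD7_2 samples, while GINS2, CDC45, PCNA, E2F1, CDC6 and PRIM1 have both shCHD7_2 samples above both vector samples without being called.

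The 3′ untranslated region of GINS1 holds a short word that few of the 45 genes have. Overlapping words of 7 bases, namely AGCTATT, then GAAGCTA and also GCTATTA, were chosen from earlier results on these same samples with GINS1 among the genes used, so a word in GINS1 is no independent evidence. In the longest annotated 3′ untranslated regions of GENCODE 29, 4 of the 45 genes held a word (8.89%), against 2613 of the 11691 tested genes with such a region (22.4%). The median length of the region was 980 bases in the 45 genes and 1360 bases in all. The 4 genes were GINS1, MCM8, ORC4 and RFC1, and 1 site of each is given 5′ to 3′ with the word in capitals. The sites are at chr20:25446077-25446101 (+) for GINS1, chr20:5995197-5995221 (+) for MCM8, chr2:147934069-147934093 (-) for ORC4 and chr4:39287671-39287695 (-) for RFC1.
GINS1: ttgattttaGAAGCTAtagacattg
MCM8: tttgtttttAGCTATTtaataatag
ORC4: aaagccagtGCTATTAagacctgaa
RFC1: tagatgtctAGCTATTttttaatct
The word begins at base 95 of 2564 in the region of GINS1, at base 1426 of 5113 in ORC4 and at base 1075 of 1305 in RFC1. The log2 fold changes of MCM8, ORC4 and RFC1 were 0.02, -0.08 and -0.10, and none was called. Over all genes tested the median log2 fold change was -0.0788 with a word and 0.0207 without. In the other lists given below, the genes called lower, ASF1A, SLBP, MTBP, TFDP1, TYMS and CDK2, all hold a word. Of the genes called higher there, E2F7 alone holds a word. A word is present in 17.6% of the other replication genes and 37.5% of the genes of G1/S control and E2F activity. Several of these genes, such as TICRR, HELLS and CCNE2, were not called. The share with a word among all genes called lower was not determined. As the words came from these samples, these values are no independent evidence either.

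The MCM2-7 helicase, which unwinds DNA at the fork, had 0 of 6 subunits called in edgeR, and MCM2 alone had an unadjusted p under 0.05. MCM7 had the highest level of the 6 subunits at a mean of 145 FPKM, and MCM5 the lowest at 39.1 FPKM, a ratio of 3.72. MCM3 and MCM6 were both at 43.7 FPKM, MCM2 at 46.9 FPKM and MCM4 at 70.3 FPKM. MCM2, MCM3, MCM5 and MCM6 thus had close levels in a complex that holds each subunit once, with MCM4 and MCM7 above them. MCM7 was at 373 and 356 CPM in the vector samples and at 347 and 361 CPM in the shCHD7_2 samples, so the groups overlapped. MCM5 was at 98.0 and 88.0 CPM against 90.0 and 97.1, also with overlap. MCM2 differed most, at 149.8 and 142 CPM against 160.1 and 172, a log2 fold change of 0.19 that was not called (edgeR adjusted p = 0.126). MCM4 had 304 and 317 CPM against 353 and 329.6 (edgeR adjusted p = 0.254). The log2 fold changes of the other subunits were -0.02 for MCM3, 0.01 for MCM5, -0.04 for MCM6 and -0.04 for MCM7.

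MCM8 and MCM10 carry the MCM name but are not part of the ring. MCM8 acts with MCM9 in recombination, and MCM10 helps to activate the helicase. Their mean levels were 15.0 and 15.3 FPKM, below each of the MCM2-7 subunits. MCM8 was at 79.3 and 85.9 CPM in the vector samples and at 88.5 and 79.2 CPM in the shCHD7_2 samples. MCM10 was at 59.8 and 70.8 CPM against 67.1 and 70.3. In both genes the groups overlapped.

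The origin recognition complex, which marks the sites where the helicase is loaded, spanned a 6.87-fold range of levels. ORC5 was highest at 44.5 FPKM and ORC1, the subunit whose amount is known to vary through the cell cycle, was lowest at 6.47 FPKM. ORC1 was at 17.97 and 20.8 CPM in the vector samples and at 19.5 and 19.4 CPM in the shCHD7_2 samples, so both knockdown values lay between the vector values. ORC5 was at 81.5 and 83.0 CPM against 77.0 and 78.7, a difference of -0.08 on the log2 scale (95% interval -0.25 to 0.09). ORC6, the smallest subunit, had the largest difference, at 30.6 and 31.6 CPM against 35.0 and 36.9, a log2 fold change of 0.21 (edgeR adjusted p = 0.167). ORC2, ORC3 and ORC4 had log2 fold changes of -0.07, 0.10 and -0.08. None of the 6 subunits was called.

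CDC6 and CDT1 load the helicase, and geminin binds and inhibits CDT1. CDC6, known as an E2F target, was at 69.4 and 69.9 CPM in the vector samples and at 80.3 and 75.5 CPM in the shCHD7_2 samples (log2 fold change 0.16, edgeR adjusted p = 0.238). CDT1 had the highest level of the 3 at 38.3 FPKM and varied within the groups, at 109 and 88.0 CPM against 86.1 and 103. GMNN had the lowest at 21.8 FPKM, with 24.3 and 26.5 CPM against 25.01 and 23.1. The 2 samples of each group differed in CDT1 by more than the groups did. The FPKM level of GMNN relative to CDT1 was 0.504 and 0.647 in the vector samples and 0.643 and 0.510 in the shCHD7_2 samples. CDC7, the kinase that fires origins, was at 32.3 and 38.01 CPM against 43.0 and 38.5 (edgeR adjusted p = 0.185), while its activator DBF4 was at 54.8 and 59.2 CPM against 57.1 and 51.5. The values of CDC7 did not overlap between the groups and those of DBF4 did.

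**Figure D3:**
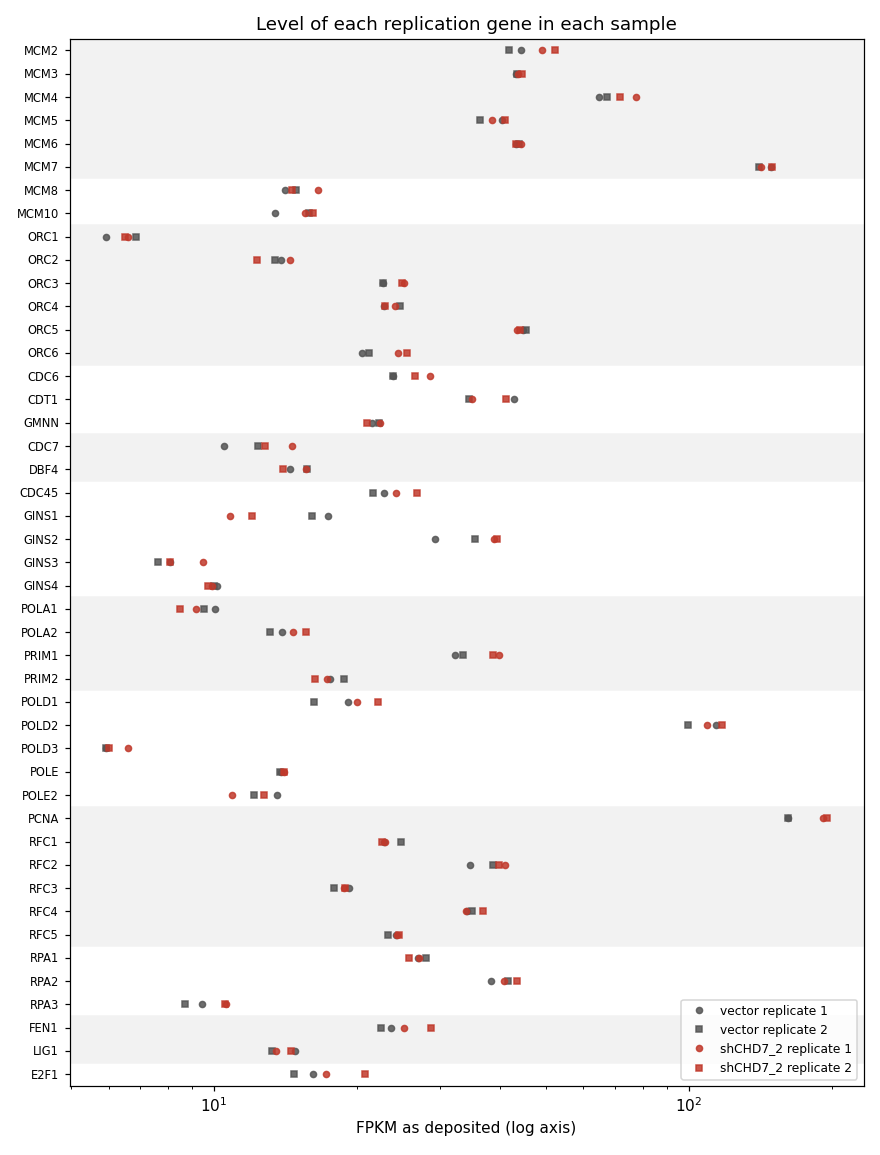
FPKM as deposited (log axis) of each of the 45 genes in the 2 vector samples (grey) and the 2 shCHD7_2 samples (red), in the order of their complexes, which the bands separate. Levels run from a mean of 6.11 FPKM for POLD3 to 178 FPKM for PCNA, and the 4 samples of a gene lie close together beside the range between genes, with GINS1 showing the clearest gap between the groups.

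Polymerase alpha with its primase starts each new strand with a short RNA-DNA primer. Of its 4 subunits, 2 had both knockdown samples below both vector samples and 2 had them above, an arrangement found in 27.3% and 26.4% of all genes. POLA1, the catalytic subunit, was at 53.9 and 51.2 CPM in the vector samples and at 46.8 and 44.2 CPM in the shCHD7_2 samples. Its log2 fold change of -0.21 (95% interval -0.39 to -0.02) was not called (edgeR adjusted p = 0.142). PRIM2, the large primase subunit, had 38.1 and 41.1 CPM against 36.4 and 35.0 (edgeR adjusted p = 0.333). PRIM1, the catalytic primase subunit and the highest of the 4 at 36.0 FPKM, had 42.5 and 44.3 CPM against 50.7 and 49.95 (log2 fold change 0.21, edgeR adjusted p = 0.128). POLA2 had 37.4 and 33.5 CPM against 38.4 and 41.2. The level of PRIM1 was 3.87 times that of POLA1, the lowest of the 4 at 9.30 FPKM. In GENCODE 29, 35.1% of the exonic bases of POLA2 and 21.6% of those of PRIM1 are shared with exons of other genes, so reads in those parts are uncertain. The same holds for 23.6% of the exonic bases of MCM2 and 23.6% of those of GINS4.

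Polymerases delta and epsilon extend the lagging and the leading strand. POLD2, an accessory subunit, was the third most abundant of the 45 genes at 110.2 FPKM, and POLD3, another accessory subunit of the same enzyme, the least abundant at 6.11 FPKM. POLD2 was at 174 and 151 CPM in the vector samples and at 160.2 and 175 CPM in the shCHD7_2 samples. POLD3 was at 20.0 and 19.8 CPM against 22.2 and 20.5. POLD1, the catalytic subunit, was at 64.1 and 53.6 CPM against 63.9 and 71.5, a log2 fold change of 0.20 (edgeR adjusted p = 0.189), with overlapping groups. POLE, the catalytic subunit of epsilon, was at 105 and 107 CPM against 103 and 102, and POLE2 at 22.3 and 20.4 CPM against 18.02 and 21.8. None of these 5 genes was called.

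PCNA, the ring that holds the polymerases on DNA, had the highest level of the 45 genes and came closest to a call in the upward direction. It lies on chromosome 20 of GRCh38 from 5114953 to 5126626 (GENCODE 29). PCNA was at 190.9 and 190.7 CPM in the vector samples and at 218 and 226 CPM in the shCHD7_2 samples, a log2 fold change of 0.22 (95% interval 0.07 to 0.37, edgeR adjusted p = 0.0575). It was called with library totals in place of TMM (edgeR adjusted p = 0.0215), in limma on log2(FPKM + 1) (adjusted p = 0.0231) and without shCHD7_2 replicate 1 (edgeR adjusted p = 0.0440). With library totals and on log2(FPKM + 1) the median log2 fold change of all genes tested was also higher. It was 0.0445 and 0.038 there, beside 0.0006 in the main fit. The clamp loader subunits RFC1 to RFC5, which open the ring, had smaller differences than PCNA, and 0 of 5 had an unadjusted p under 0.05. RFC2, the most abundant at 38.5 FPKM, was at 54.6 and 59.4 CPM against 62.2 and 61.1 (log2 fold change 0.11). RFC3, the least abundant at 18.7 FPKM, was at 45.2 and 43.0 CPM against 43.2 and 43.6. The log2 fold changes of RFC1, RFC3, RFC4 and RFC5 lay between -0.10 and 0.00.

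RPA coats single-stranded DNA behind the helicase. RPA2 was the most abundant subunit at 41.1 FPKM, with 63.6 and 69.2 CPM in the vector samples and 65.6 and 70.4 CPM in the shCHD7_2 samples. RPA3 was the least abundant at 9.82 FPKM, with 17.4 and 16.03 CPM against 18.8 and 19.0 (log2 fold change 0.18, edgeR adjusted p = 0.365). RPA1 had a log2 fold change of -0.09. FEN1, the nuclease that trims Okazaki fragments, was at 51.1 and 48.8 CPM against 52.8 and 60.5 (log2 fold change 0.18, edgeR adjusted p = 0.218). LIG1, the ligase that joins them, was at 48.4 and 43.3 CPM against 42.5 and 46.4, with overlapping groups.

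E2F1, the transcription factor that binds many of these promoters, had the largest positive difference of the 45 genes. It was at 41.6 and 38.1 CPM in the vector samples and at 43.0 and 52.4 CPM in the shCHD7_2 samples, a log2 fold change of 0.26 (95% interval 0.05 to 0.47) that was not called (edgeR adjusted p = 0.104). The knockdown samples differed from each other by more than the lower of them differed from the vector samples. Without shCHD7_2 replicate 1 the log2 fold change of E2F1 was 0.39 and was called (edgeR adjusted p = 0.00619), and without shCHD7_2 replicate 2 it was 0.11 and was not (edgeR adjusted p = 0.643). The median log2 fold change was -0.017 in the 19 genes whose promoter holds an E2F word and -0.0012 in the 20 whose promoter does not.

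Other genes of the process were taken from lists written with earlier results of these data known. Of 34 other replication genes, 3 were called lower and 1 higher, beside 6.54% and 4.94% of all genes tested, and the median log2 fold change was 0.058. ASF1A, a histone chaperone, fell from 36.9 and 38.8 CPM to 20.3 and 19.5 CPM (log2 fold change -0.92, edgeR adjusted p = 9.84e-07). SLBP, which binds the stem-loop of histone mRNAs, fell from 130.0 and 129 CPM to 94.9 and 92.8 CPM (log2 fold change -0.47, edgeR adjusted p = 0.000375). MTBP, which helps origins to fire, fell with a log2 fold change of -0.39 (edgeR adjusted p = 0.00977), and PCLAF, a PCNA-binding factor, rose with 0.33 (edgeR adjusted p = 0.0172).

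Of 32 genes of G1/S control and E2F activity, 3 were called lower and 6 higher, beside the same 6.54% and 4.94% of all genes. TFDP1, the dimer partner of E2F factors, fell from 141 and 134 CPM to 86.4 and 81.6 CPM (log2 fold change -0.71, edgeR adjusted p = 2.23e-06). TYMS, which makes thymidylate, fell with -0.60 (edgeR adjusted p = 4.73e-05), and CDK2 fell with -0.36 (edgeR adjusted p = 0.00492). CDK6, a G1 kinase, rose from 69.6 and 73.7 CPM to 128 and 103 CPM (log2 fold change 0.68, edgeR adjusted p = 3.35e-05). CDKN1A is given above, and the other called genes, CCNE1, MYBL2, RRM2 and E2F7, named outside the rule with their values known, rose with log2 fold changes of 0.28 to 0.35. E2F7, CCNE1, MYBL2 and RRM2 are known as E2F targets. Of 16 genes of G2 and mitosis 0 were called in edgeR, but at an unadjusted p under 0.05 there were 5 lower and 0 higher, beside 13.3% and 12.1% of all genes, and their median log2 fold change was -0.13. Both knockdown samples lay below both vector samples in 11 of the 16 and above them in 0, beside 27.3% and 26.4% of all genes.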

How the data were processed

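RNA-seq was measured in 2 vector and 2 shCHD7_2 samples. The authors deposited estimated counts per gene, made with RSEM and not normalized, of which 13.6% to 14.7% per sample were not whole, and FPKM, normalized by the authors for gene length and depth. Per the labels, the processing notes name Bowtie2, RSEM, DESeq2 and hg38. Versions are not given in the sources used here.

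Counts were rounded, filtered (filterByExpr), TMM-scaled and tested in R 4.3.3 with edgeR 4.0.16. Standard errors and 95% intervals derive from the quasi-likelihood F statistic. Locations and 3′ untranslated regions come from GENCODE 29 (GRCh38), with Python 3.11.15. In GENCODE 29, 18 of the 45 genes share exonic bases with another gene and 7 have pseudogenes that bear their name, so reads split between them are uncertain. The members and lists were chosen with earlier results of these data known. Every member is accounted for. Full values were due for called members, the highest and lowest of each complex in FPKM, E2F1 and PCNA, with CHD7 and CDKN1A as checks and, per other list, up to 5 called genes of smallest p. Alternatives were DESeq2 1.42.0, limma 3.58.1 on FPKM (pseudocount 1 or 0.1, minimum mean FPKM 1 or none), DESeq2's size factors, library totals, no filter or a mean CPM of at least 1, a replicate block, a crossed block added after seeing the data, and leaving out each sample. The fit was tested on simulated data. The counts of the samples of a group differed by more than sampling noise (chi-square per gene 3.94 and 6.06), so all 4 were kept as separate libraries.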

Additional observations from a re-analysis of the deposited data

How the results depend on the processing

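The median log2 fold change of the 45 genes stayed between 0.0036 and 0.0524 under all 14 alternatives. That of all genes tested ran from -0.0046 to 0.0445. Of the 45 genes, 0 were called lower without a filter on low counts or on FPKM without a filter. Called higher were 1 with library totals (PCNA), 2 on log2(FPKM + 1), 2 on log2(FPKM + 0.1) and 0 to 2 without each sample in turn, the 2 being PCNA and E2F1 without shCHD7_2 replicate 1. The count past 1.5-fold was 0 with library totals, without a filter and in the 3 limma fits, and 0 to 1 without each sample. The log2 fold change of GINS1 lay between -0.69 and -0.51. Its adjusted p was highest on FPKM without a filter (limma, 0.107). It was lowest in the crossed block (edgeR, 2.27e-17), a setting chosen after seeing the data. Over all genes, calls went from 1373 to 800 with DESeq2, 197 without a filter, 755 with the replicate block and 24 on FPKM without a filter, and to 610 (without vector replicate 2), 818 (without vector replicate 1) and at most 1702 (without shCHD7_2 replicate 1). With the 1.5-fold demand they went from 344 to 221 with DESeq2, 141 without a filter, 172 on log2(FPKM + 1) and 23 on FPKM without a filter. Where 1 sample was left in an arm, it was assumed to vary like the other group. The causes were not tested.

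The numbers of the replicates did not pair the samples, since the deviations of same-numbered samples correlated at -0.198 over all genes and at -0.524 over the 45. With 2 samples per group, the same correlations with the numbers crossed are equal in size and positive. The source of this was not tested. The replicate block gave the 755 calls above and changed no call among the 45 genes. A crossed block, chosen after seeing the data, gave 3751 calls among the 11955 genes tested. Among the 45 it called 2 lower and 11 higher. The calls over all genes were not split by direction, so only the 3751 of 11955 called in either direction stand beside these counts. An excess of higher or lower calls among the 45 cannot be read from them.

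The sign of uncalled genes with a small log2 fold change in the main fit turned with the setting. Leaving out 1 sample also moved some of them further, CDT1 to -0.2124, POLE2 to -0.2434 and MCM10 to 0.1988. The median of all genes tested also moved, from 0.0006 in the main fit to 0.0445 with library totals. It was 0.038 on log2(FPKM + 1), 0.0223 on the same without a filter and 0.0417 on log2(FPKM + 0.1). With library totals, log2(FPKM + 1) with or without a filter and log2(FPKM + 0.1), the log2 fold change was 0.027, 0.0252 and 0.0258 for MCM3, 0.0088, 0.0079 and 0.008 for MCM6, 0.0022, 0.0079 and 0.008 for MCM7, 0.021, 0.0203 and 0.0214 for RFC3, 0.0414, 0.0367 and 0.0377 for RFC4, and 0.0269, 0.0402 and 0.0417 for RFC5. In the FPKM fits it was 0.0266 and 0.0283 for POLE, and 0.0011 and 0.0013 for LIG1. It was 4e-04 for RFC4 with DESeq2 and with its size factors, and -0.0038 for ORC1 without a filter. Without each sample in turn it ran from -0.0384 to 0 for MCM3, -0.0679 to 0.0861 for MCM5, -0.0659 to 0.0997 for MCM8, -0.0439 to 0.1988 for MCM10, -0.104 to 0.1106 for ORC1, -0.178 to 0.0343 for ORC2, -0.2124 to 0.0988 for CDT1, -0.152 to 0.0036 for DBF4, -0.0529 to 0.1445 for POLD2, -0.2434 to 0.0227 for POLE2, -0.0581 to 0.011 for RFC3, -0.0708 to 0.0587 for RFC4, -0.0616 to 0.022 for RFC5, -0.0264 to 0.0949 for RPA2 and -0.1244 to 0.0354 for LIG1.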
